A study of Danio rerio with 4 samples.

Results

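The genes described here encode transporters, pumps and ion channels, and they were compared between cells sorted from the heads of zebrafish larvae at 48 hpf. The deposited table lists 756 genes, and 14 of them have a symbol of a solute carrier (slc), an ABC transporter, a P-type or V-type ATPase, an aquaporin, or a potassium, calcium, sodium, chloride or TRP channel. *slc4a1a*, the band 3 anion exchanger of red cells, fits the naming rule but was left out and appears below only among the erythrocyte genes. The larvae carried *TgBAC(apln:Venus-PEST)*, in which *apln* sequences drive a short-lived Venus, and *Tg(kdrl:Hsa.HRAS-mCherry)*, which marks endothelial cells, on a genotype labelled Wildtype. Both groups came from these same double transgenic larvae, with 2 libraries of Venus positive, mCherry negative cells (below: Venus positive cells) and 2 libraries of cells negative for both reporters (double negative cells). Endothelial cells with mCherry belonged to neither group, and the labels call the cell type of both groups mixed.

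Transport proteins set what crosses the membrane of a cell. Pumps of the P-type and ABC families use ATP to move ions, lipids or small molecules against a gradient, solute carriers move their substrates down a gradient or coupled to an ion, and channels let ions or water pass when they open. In mammals, carriers of the meninges and the choroid plexus help to keep brain fluid apart from blood, while in skin, ionocytes, red cells and muscle each cell type carries its own characteristic set.

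Of the 14 genes, 8 were higher and 6 were lower in Venus positive cells. The genes that were higher were the calcium pump *atp2b4*, the lipid flippase *atp10a*, the ABC transporter *abcb6b*, the carriers *slc43a3b*, *slc2a11b* and *slc6a4a* and the calcium channel genes *cacna1g* and *cacng1a*. The genes that were lower were the sodium pump subunit *atp1a1a.4*, the nucleoside carrier *slc29a1b*, the carrier *slc6a13l*, the ABC transporters *abca12* and *abcg2d* and the water channel *aqp1a.1*. Every Q value of the table is under 0.05, so each of the 14 had passed the authors' own test of these same 4 libraries beforehand. All 14 passed the quasi-likelihood test of edgeR, adjusted by Benjamini-Hochberg over the listed genes, as did 100% of the 754 listed genes tested, so the call itself adds no evidence. Of those 754 genes 64.2% were higher and 35.8% lower, against 57.1% and 42.9% of the 14, so the division of the transport genes into higher and lower lay near that of the table. Likewise the groups did not overlap for any of the 14 genes, and for 100% of the 756 listed genes they did not overlap either. These directions rest on the authors' size factors, which were not set on the listed genes alone. Scaled over the listed genes alone, 84 (TMM) or 72 (RLE) of the 754 genes were called higher and 270 lower. The calls of *cacng1a*, *slc6a4a* and the 6 lower genes then held, and those of the other 6 higher genes were lost. Under RLE *atp2b4* and *atp10a* turned to slightly negative values. Such scaling sets the middle of a selected list to no change, moving its median log2 fold change by -1.77 (TMM) or -1.87 (RLE). It could therefore hardly lose a lower call, and genes near that median, such as *atp2b4* and *atp10a*, had to come near no change. These outcomes do not tell firm calls from weak ones.

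A stricter adjustment counts the edgeR p-values as part of the 23016 genes that the authors tested. It left 55.4% of the genes tested called in either direction. With it 3 of the 14 were called higher (*cacng1a*, *slc6a4a* and *slc43a3b*), which is 21.4% of them, against 29.7% of the genes tested. Another 5 were called lower (*atp1a1a.4*, *slc6a13l*, *slc29a1b*, *abcg2d* and *abca12*), which is 35.7% of them, against 25.7%. The remaining 6, *aqp1a.1*, *atp2b4*, *atp10a*, *abcb6b*, *cacna1g* and *slc2a11b*, had adjusted p-values between 0.0946 and 0.163 in this setting. The median log2 fold change was 1.87 over the 14 genes and 1.85 over all listed genes. Among the higher genes it was 2.65 against 2.39 over all listed higher genes, and among the lower genes -5.54 against -4.70.

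**Figure D1:**
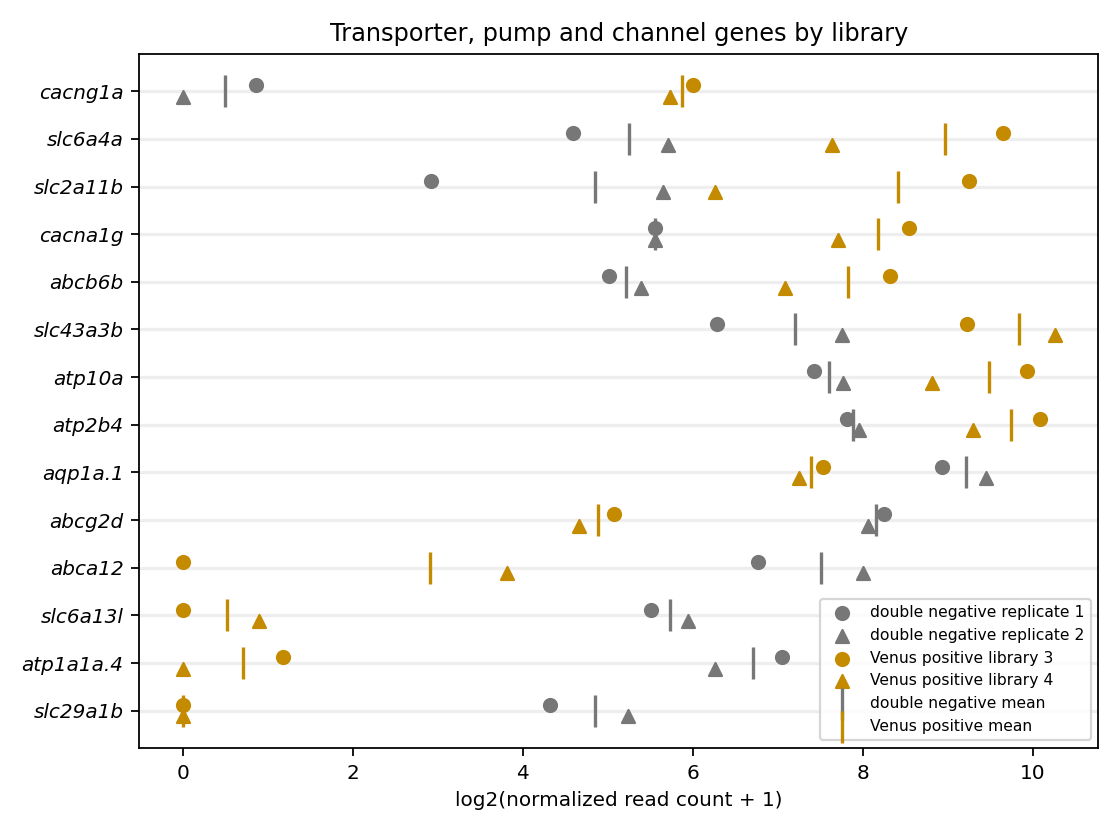
Level of each of the 14 genes in each library, as log2(normalized read count + 1) with the authors' size factors, where grey symbols are double negative replicates 1 (circle) and 2 (triangle), gold symbols Venus positive libraries 3 (circle) and 4 (triangle), and vertical ticks the group means. The top 8 genes lie to the right in the gold libraries and the bottom 6 to the left, with the 2 groups closest for *slc2a11b*, where 49.1 in double negative replicate 2 faces 75.5 in Venus positive library 4.

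Values of single genes are normalized read counts, which are the estimated counts divided by the size factor of the library, and the Venus positive libraries carry the numbers 3 and 4 of the table's columns. These values compare 1 gene between libraries. In sorted bulk samples, fewer cells of a type and less RNA per cell cannot be told apart. *apln*, whose reporter defined the sort, stood at 651 and 802 in the double negative replicates and at 11006 and 8899 in the Venus positive libraries. The size factors ran from 0.796 to 1.22, and since the listed genes are a selection their totals do not give the depth of a library. The libraries of a group differed by more than sampling noise. Whether each library was a separate sort or clutch is not stated, and the tests therefore weigh differences against a spread that may be technical. Below, log2FC is the log2 fold change of Venus positive over double negative cells from edgeR with its standard error (SE), and p adj is its p-value adjusted over the listed genes.

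P-type ATPases bind ATP and pass through a phosphorylated state as they pump, and of the 3 listed genes of this family 2 were higher and 1 was lower. *atp2b4* (NCBI gene 768304) encodes a calcium pump of the plasma membrane that moves calcium out of the cell. It had 223 and 247 normalized read counts in the double negative replicates and 1085 and 626 in the Venus positive libraries. Both Venus positive libraries exceeded both double negative ones, by 2.53 times or more, and the means of 856 ± 324 and 235 ± 16.9 (SD, n = 2 each) differed by 3.63 times. The log2FC was 1.86 (SE 0.52, p adj = 0.00333), near the median of 1.85 over all listed genes. RLE scaling sets that median to about no change, and with it the log2FC of *atp2b4* was -0.05.

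*atp10a* (NCBI gene 567172) encodes a P4-type ATPase, a flippase that in mammals moves phospholipids between the leaflets of the plasma membrane. Its normalized read counts were 171 and 217 in the double negative replicates and 974 and 450.3 in the Venus positive libraries. The groups were separated by 2.08 times or more. The 3.67-fold difference of the means corresponded to a log2FC of 1.88 (SE 0.56, p adj = 0.00462). This too lay near the median of all listed genes, and with RLE scaling it was -0.04. Without Venus positive library 3 the log2FC was 1.22 and p adj 0.0709.

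*atp1a1a.4* (NCBI gene 64615) encodes an alpha 1 subunit of the sodium pump, which exports sodium and imports potassium. It went the other way, with 131 and 75.7 normalized read counts in the double negative replicates and 1.26 and 0 in the Venus positive libraries. Its Venus positive reads amounted to 1 read in the 2 libraries together, against 234 in the double negative ones, so the transcript was close to the limit of detection there. Double negative cells held 208 times the level of Venus positive cells by summed counts, with an exact 95% interval from 36.9 to 8237 that covers counting error only. Its p adj was 1.67e-04.

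The alpha 1 subunit genes of zebrafish include near copies that lie side by side. In the RefSeq annotation of another assembly (GRCz12tu, used for names and neighbours only) the gene next to *atp1a1a.4* is *atp1a1a.1*, and *atp1a1a.2*, *atp1a1a.3*, *atp1a1a.5* and *atp1a1b* carry the same stem. None of these is in the table. *atp1a1a.4* was also the 1 gene of the 14 with an estimated count that was not whole, 159.72 in double negative replicate 1, which RSEM can write when reads fit more than 1 transcript. Of all 756 listed genes 78 (10.32%) had such a count. Which genes the reads of *atp1a1a.4* also fit was not tested, and its counts are given with that limit.

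ABC transporters likewise moved in both directions. *abcb6b* (NCBI gene 100004801) is related to mammalian ABCB6, a transporter of porphyrins. It rose from 31.2 and 40.9 normalized read counts in the double negative replicates to 318 and 134 in the Venus positive libraries. The lowest Venus positive value was 3.29 times the highest double negative value. The means of 36.1 ± 6.84 and 226 ± 129.8 (SD, n = 2 each) differed by 6.27 times, a log2FC of 2.65 (SE 0.79, p adj = 0.00462). The log2FC was 1.90 without Venus positive library 3, and without double negative replicate 1 p adj was 0.0548.

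*abcg2d* (NCBI gene 735310) belongs to the ABCG2 genes, whose human member exports drugs, urate and porphyrins and also lies in the red cell membrane. It had 304 and 266 normalized read counts in the double negative replicates and 32.7 and 24.3 in the Venus positive libraries. The libraries of each group were close to each other and the groups were 8.13 times apart or more. The log2FC was -3.32 (SE 0.76, p adj = 9.49e-04). *abcg2a*, *abcg2b* and *abcg2c*, the other genes of the stem, are not in the table.

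*abca12* (NCBI gene 558335) is the counterpart of a human lipid transporter of the outer skin, where it loads lipids into secretory granules of keratinocytes. It had 108 and 255 normalized read counts in the double negative replicates. In the Venus positive libraries it had 0 and 13.0, that is 0 and 15 reads. The group means differed by 27.8 times and the log2FC was -4.68 (SE 1.13, p adj = 0.00132). Its 15 reads in Venus positive library 4 set this size, since without that library, where the remaining one held 0 reads, the fit gave -10.50, which is no bound.

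**Figure D2:**
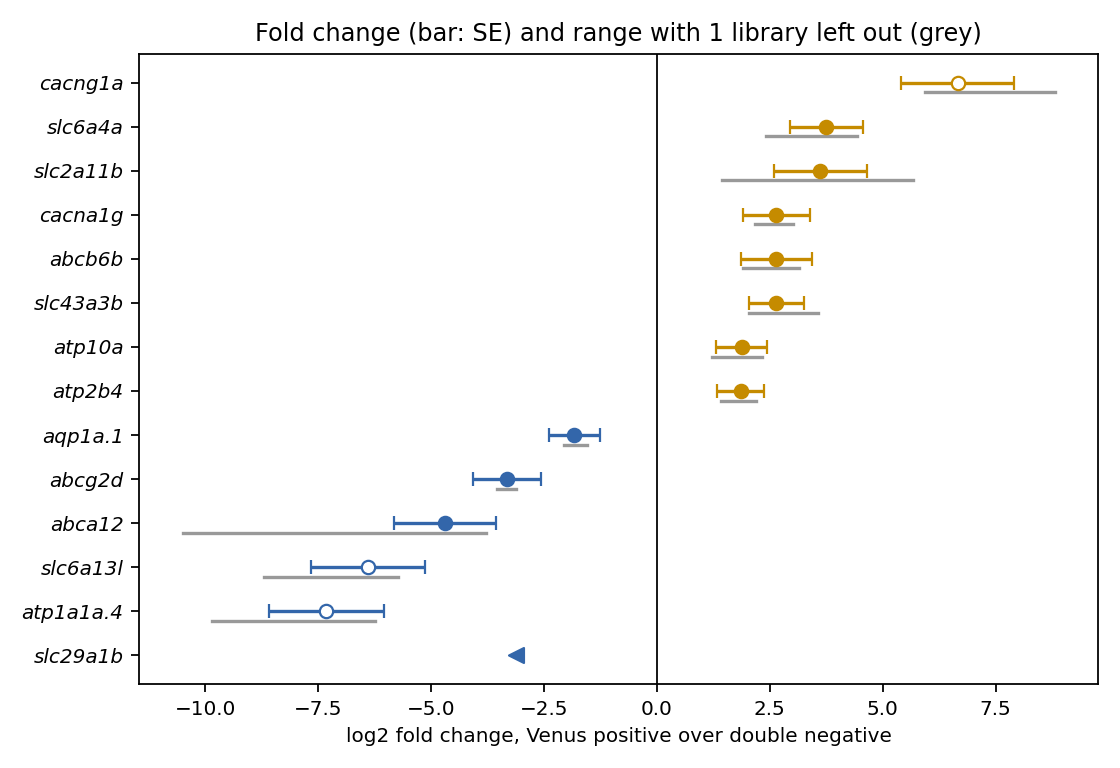
Log2 fold change of each gene, Venus positive over double negative, from edgeR with its standard error (bars), and the range of the value when each library was left out in turn (grey lines). Open circles mark genes with 1 read in the lower group, and the arrowhead of *slc29a1b* marks the bound from its count of 0, with a fold of at least 8.74. The grey ranges lie on 1 side of 0 for all 13 genes drawn with one (with the authors' size factors), and those of *slc2a11b* (1.45 to 5.67) and *abca12* (-10.50 to -3.79) are the widest among genes with more than 3 reads in the lower group.

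The solute carriers comprised 5 of the 14 genes, 3 higher and 2 lower. *slc6a4a* (NCBI gene 664719) encodes the serotonin transporter, which takes up serotonin together with sodium and chloride. It stood at 23.004 and 51.1 normalized read counts in the double negative replicates and at 802 and 199 in the Venus positive libraries. Every Venus positive library exceeded every double negative one, by 3.89 times or more, but the 2 Venus positive libraries differed from each other by 4.04 times. The group means differed by 13.5 times, with a log2FC of 3.76 (SE 0.80, p adj = 6.13e-04). The log2FC was 2.43 without Venus positive library 3 and 4.44 without library 4.

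*slc2a11b* (NCBI gene 564970) belongs to the facilitative sugar carrier family and is known from medaka for its part in pigment cell development. It was uneven within both groups, with 6.57 and 49.1 normalized read counts in the double negative replicates and 607 and 75.5 in the Venus positive libraries. The groups were separated by only 1.54 times at their closest, while the libraries within a group differed by 7.47 times (double negative) and 8.04 times (Venus positive). The log2FC was 3.62 (SE 1.03, p adj = 0.00358). It was 1.45, with p adj of 0.13, without Venus positive library 3, and it was 5.67 without double negative replicate 2.

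Of 12 genes on the neural crest and pigment list, 3 are in the table (*sox10*, *pmela* and *pnp4a*), and all 3 were lower in Venus positive cells. Their summed level was 3779 to 4083 normalized read counts in double negative replicates and 941 to 1412 in Venus positive libraries, and none of the 3 was at 0 in both Venus positive libraries. *slc2a11b* moved in the opposite direction to these 3 genes, and the other genes of that list give no value here. Between libraries of a group the pigment genes differed among themselves. *pnp4a* stood at 638 and 1150 in the double negative replicates and at 324 and 114 in Venus positive libraries 3 and 4. Its higher values were thus in the same libraries as those of *slc2a11b*. *pmela*, at 3126 and 2420 and at 561 and 1239, had its higher values in the other libraries. So did *sox10*, at 319 and 209 and at 56.6 and 59.9. The part of pigment cells in its levels was not tested.

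*slc43a3b* (NCBI gene 556206) is related to human SLC43A3, a carrier of purine nucleobases. Its normalized read counts were 77.2 and 216 in the double negative replicates and 599.6 and 1223 in the Venus positive libraries. Here library 4 was the higher of the Venus positive libraries, unlike for *slc6a4a* and *slc2a11b*, and the groups stayed 2.78 times apart or more. The means of 911 ± 441 and 146 ± 97.9 (SD, n = 2 each) differed by 6.22 times, with a log2FC of 2.64 (SE 0.61, p adj = 0.00103). The log2FC was 3.56 without double negative replicate 2 and 2.04 without Venus positive library 4.

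*slc29a1b* (NCBI gene 100331439) is related to human SLC29A1, an equilibrative carrier of nucleosides that is abundant in the red cell membrane. It had 18.9 and 36.8 normalized read counts in the double negative replicates and 0 reads in both Venus positive libraries. Since 0 reads are compatible with up to 3 in a library, or 3.77 and 2.60 normalized read counts, the level in double negative cells was at least 8.74-fold higher. Its p adj was 7.08e-04. The nucleobase carrier *slc43a3b* was thus higher and the nucleoside carrier *slc29a1b* lower, a pairing made after their values were seen.

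*slc6a13l* (NCBI gene 561024, named *slc6a22.2* in RefSeq) belongs to the family of sodium- and chloride-coupled carriers that also holds *slc6a4a*. It had 44.4 and 60.3 normalized read counts in the double negative replicates and 0 and 0.868 in the Venus positive libraries. The 1 read in Venus positive cells against 113 in double negative cells gave a ratio of 100.3, with an exact 95% interval from 17.6 to 3996 for counting error only. Its p adj was 3.88e-04. The neighbouring gene in RefSeq, *slc6a22.1*, is not in the table. None of the estimated counts of *slc6a13l* was fractional, and whether its reads also fit that gene was not tested.

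The 3 channel genes were 2 calcium channel subunits, both higher, and 1 water channel, which was lower. *cacna1g* (NCBI gene 563904) encodes the pore of a T-type calcium channel, which opens at small depolarizations. It stood at 46.01 normalized read counts in both double negative replicates and at 371 and 208 in the Venus positive libraries. The 6.29-fold difference of the means gave a log2FC of 2.65 (SE 0.73, p adj = 0.0031). The groups lay 4.53 times apart or more.

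*cacng1a* (NCBI gene 322013) is related to the gamma 1 subunit of the skeletal muscle calcium channel of mammals. It had 1 and 0 reads in the double negative replicates and 50 and 60 in the Venus positive libraries, or 0.822, 0, 62.8 and 52.1 normalized read counts. The Venus positive libraries were close to each other, and the summed counts gave a ratio of 124, with an exact 95% interval from 21.8 to 4940 for counting error only. Its p adj was 2.94e-04, and it was the largest increase among the 14 genes by fitted fold change.

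None of the 14 genes on the muscle list is in the table, so no muscle marker of that list gives a value beside *cacng1a*. That list does not hold every muscle gene, and the table was not searched for others. A gene with nearly the same pattern was *chrng*, the gamma subunit of the embryonic muscle acetylcholine receptor, which was on the list of other transport genes. It had 0 and 1 reads in the double negative replicates and 44 and 42 in the Venus positive libraries (p adj = 4.69e-04). Both genes thus had at most 1 read in a double negative replicate and stood at similar, modest read counts in Venus positive cells. They were set side by side after their values were seen, and every listed gene was selected for a difference between these groups. The part of muscle cells in their levels was not tested.

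*aqp1a.1* (NCBI gene 335821) encodes a water channel of the aquaporin 1 type, which in humans lies in red cells and in the endothelium of many vessels. It had 487 and 699 normalized read counts in the double negative replicates and 184 and 151 in the Venus positive libraries. This was the smallest of the decreases, and both Venus positive libraries kept over 100 reads. The means of 593 ± 150.0 and 167 ± 23.02 (SD, n = 2 each) differed by 3.55 times, with a log2FC of -1.83 (SE 0.56, p adj = 0.00535). Without double negative replicate 2 p adj was 0.0872, and its neighbour and close copy *aqp1a.2* is not in the table.

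Several of these carriers are known from the human red cell membrane. The human counterparts of *aqp1a.1*, *slc29a1b*, *abcg2d* and *abcb6b* all carry blood group antigens, a grouping made after their values were seen. In these libraries *aqp1a.1*, *slc29a1b* and *abcg2d* were lower in Venus positive cells and *abcb6b* was higher. The grouping is not a full list of the carriers of that membrane. It leaves out calcium pumps such as *atp2b4*, which was higher in Venus positive cells. Erythrocyte genes moved with the sort in the direction of the first 3. Of 18 erythrocyte genes, 13 are in the table and all 13 were lower, *slc4a1a* among them. Their summed level was 173850 to 319529 normalized read counts in double negative replicates and 3290 to 4621 in Venus positive libraries, with *gata1a* at 0 in both of the latter.

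Across groups the erythrocyte sum fell by 62.4 times and *aqp1a.1* by 3.55 times. Single erythrocyte genes fell by different amounts. The log2FC was -3.29 for *epb41b* and -3.79 for *sptb*, near the -3.32 of *abcg2d*. Every other listed erythrocyte gene fell further, with a log2FC of -5.35 (*hbbe2*) or lower. All 13 thus fell further than *aqp1a.1*, whose log2FC was -1.83. For *slc29a1b* only the bound of at least 8.74-fold is available. Between double negative replicates, the ratio of replicate 2 to replicate 1 was 1.95 for *slc29a1b*, 1.44 for *aqp1a.1* and 0.874 for *abcg2d*. The erythrocyte genes also went both ways. The globins, which make up most of the sum, and others, 10 of the 13, were higher in replicate 2, while *slc4a1a* (2061 and 1104 normalized read counts), *nt5c2l1* and *alas2* were lower there, as *abcg2d* was. The part of red cells in the lower levels of these carriers was not tested.

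Genes of an epidermal list also moved with the sort, and *abca12* is a skin gene in humans. Of 18 genes on the epidermis and periderm list, 10 are in the table and all 10 were lower in Venus positive cells. That list does not hold every keratin or epidermal gene, and the direction of others was not compared here. Their summed level was 372632 and 281833 normalized read counts in double negative replicates 1 and 2. It was 27043 and 55910 in Venus positive libraries 3 and 4, a difference of the group means of 7.89 times. None of the 10 was at 0 in both Venus positive libraries. *krt4* made up most of this sum in each library. *abca12* was 2.37 times as high in double negative replicate 2 as in replicate 1. The epidermal sum went the other way, at 0.756 times, as did *krt4* with 283412 and 178065 normalized read counts. Counted by gene, 6 of the 10 epidermal genes were higher in replicate 2, among them *evpla* with 272 and 615, and 4 were lower. Of the Venus positive libraries, library 4 held the *abca12* reads, and 5 of the 10 epidermal genes were higher there and 5 lower. The part of epidermal cells in the decrease of *abca12* was not tested.

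Ionocytes, the salt-transporting cells of fish skin, depend on the sodium pump. Of 26 genes on the ionocyte list, *atp1a1a.4* is the 1 in the table, and the transcription factors *foxi3a* and *foxi3b* that specify ionocytes are not analysed here. *slc9a3.2*, *slc12a10.2*, *trpv6* and *rhcgb*, which mark ionocyte subtypes, are likewise not in the table. No endothelial (13 genes), neuronal (14), or macrophage and neutrophil (10) marker of the lists is in the table either. Genes outside the table were not analysed here, and their absence does not show equal levels. Fibroblast and meningeal markers went with the genes that were higher. Of 13 fibroblast and mesenchyme genes 8, and of 11 meningeal precursor genes 10, were in the table, all of them higher. All 11 genes of the meningeal list are ones that the study itself named as enriched in these libraries. The same holds for *lum*, *dcn*, *fbln2* and *pdgfra* of the fibroblast list. The study also named *col1a1* and *col1a2*, while *col1a1a*, *col1a1b* and *col1a2* of that list are not in the table. Neither list is therefore independent evidence. The fibroblast sum was 7291 to 10264 normalized read counts in double negative replicates and 35570 to 47782 in Venus positive libraries.

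Levels can be compared between genes only per length, for which the authors' group means of TPM serve, a unit scaled to transcript length and library size. In Venus positive cells *atp2b4* had the highest level of the 14 at 52.9 TPM, followed by *slc43a3b* at 46.1, *slc6a4a* at 20.025 and *aqp1a.1* at 19.3. The water channel was thus among the higher transport genes of Venus positive cells although it was lower there than in double negative cells, where it led with 60.8 TPM. *slc2a11b* had 15.3 TPM in Venus positive cells, *atp10a* 7.265, *abcb6b* 4.515, *cacna1g* 3.66 and *cacng1a* 3.12, while the other 5 genes stood at 0.770 TPM or less. These are means of 2 libraries with no spread given, so neighbours in this order such as *slc6a4a* and *aqp1a.1* are not shown to differ.

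In double negative cells the level of *atp2b4* was 13.4 TPM, of *abcg2d* 7.06, of *slc43a3b* 5.945 and of *atp1a1a.4* 3.58. The other 9 genes lay between 0.035 (*cacng1a*) and 2.365 TPM (*slc6a13l*). Most of the transport genes were of modest level for this table. Over all 756 genes the median of the group mean TPM was 19.3 in Venus positive and 7.86 in double negative cells, against 4.09 and 1.71 over the 14.

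**Figure D3:**
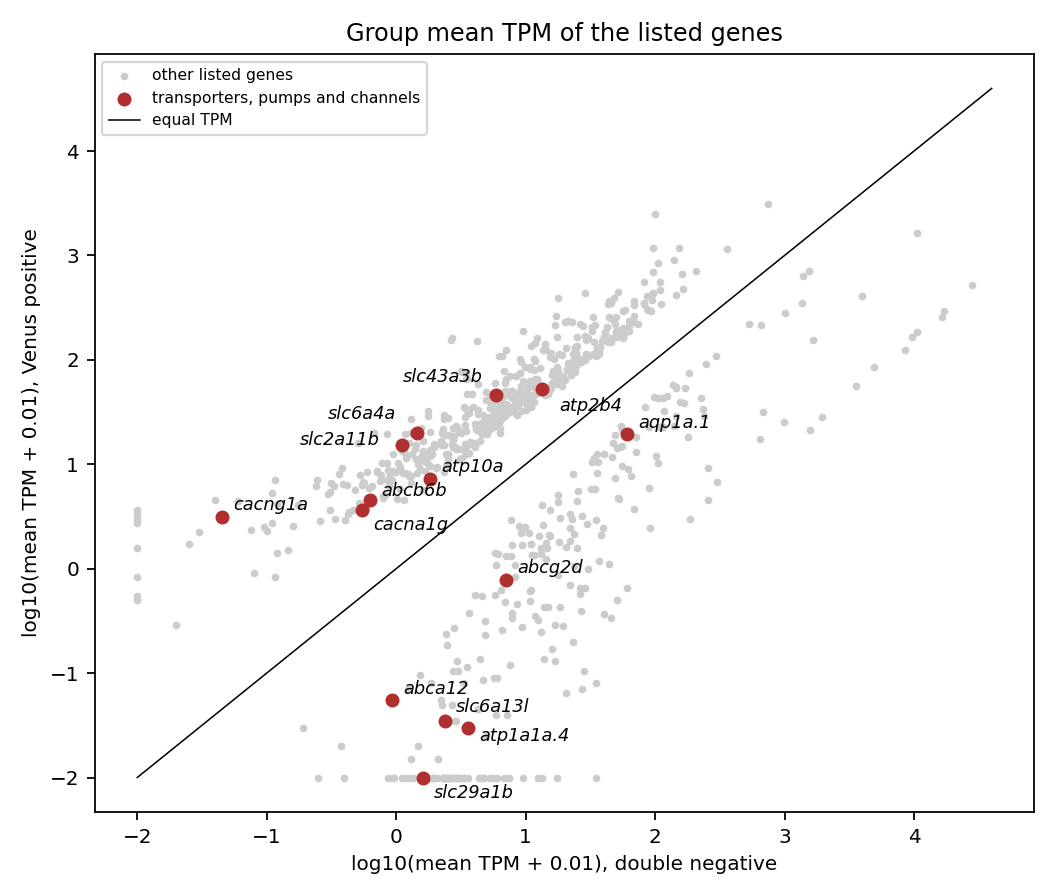
Group mean TPM of each listed gene in double negative cells (x axis) and Venus positive cells (y axis), both as log10(mean TPM + 0.01), with the 14 transport genes in red, the other listed genes in grey and a line at equal TPM. Genes near the line are missing because the table holds selected genes, and *aqp1a.1* is the red point of the lower cloud with the highest level in Venus positive cells, at 19.3 TPM.

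The spread between libraries differed among the 14 genes. Between Venus positive libraries the median absolute log2 ratio, after adding 1 to the normalized read counts, was 0.96 over the 14 genes and 0.59 over all listed genes. Between double negative replicates these medians were 0.65 and 0.54. *slc2a11b* had a larger ratio than 96.8% of the listed genes between Venus positive libraries and than 98.5% between double negative replicates. *abca12*, with reads in 1 Venus positive library, exceeded 99.3% of the listed genes there. *abcg2d*, *aqp1a.1* and *cacng1a* had absolute log2 ratios of at most 0.41 between Venus positive libraries and were the most even of the genes with reads in both.

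Of the 8 genes that were higher, 7 had the higher of their Venus positive values in library 3, and *slc43a3b* had it in library 4. The same held for 341 of all 485 listed genes that were higher (70.3%), so a lean to library 3 was common in the table. In the 7 genes library 3 exceeded library 4 by factors from 1.21 times for *cacng1a* through 1.73 for *atp2b4*, 1.78 for *cacna1g*, 2.16 for *atp10a* and 2.36 for *abcb6b* to 4.04 for *slc6a4a* and 8.04 for *slc2a11b*.

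**Figure D4:**
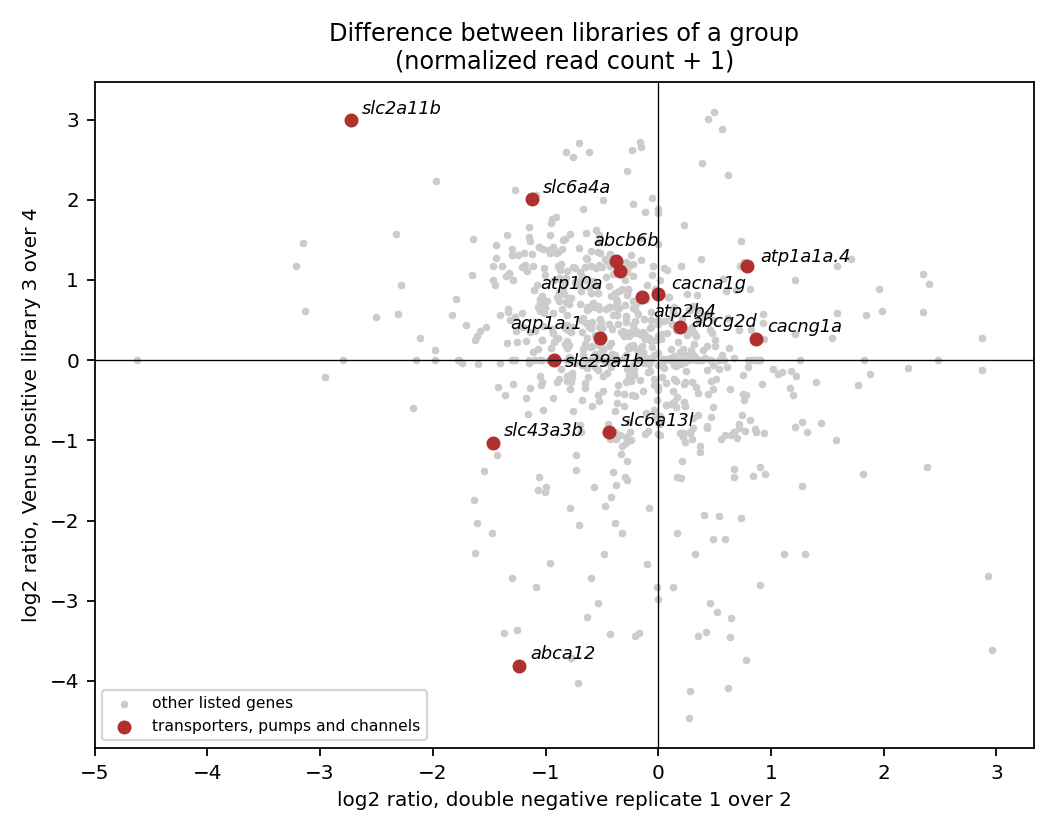
Log2 ratio of double negative replicate 1 over 2 (x axis) and of Venus positive library 3 over 4 (y axis), each after adding 1 to the normalized read counts, with the 14 transport genes in red and the other listed genes in grey. *slc2a11b* (-2.73 and 2.99) and *abca12* (-1.23 and -3.81) lie farthest from the origin among the 14.

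Most transport gene families had no member in the table. By symbol, 814 protein-coding genes of the RefSeq annotation fit the naming rule, and the 14 listed genes are 1.72% of them, whereas the 756 listed genes are 3.28% of the 23016 genes the authors tested. The denominators come from different annotations, and no test was made. Of 449 solute carrier genes 5 were listed, of 51 ABC transporters 3, of 38 P-type ATPases 3, of 62 calcium and sodium channel genes 2 and of 15 aquaporins 1. None of 130 potassium channel genes, 60 mitochondrial carriers, 30 TRP channels, 27 V-type ATPase genes, 26 bicarbonate and anion exchangers (*slc4a1a* set aside) or 12 chloride channel genes was listed.

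The list of 23 carriers of choroid plexus and blood-brain barrier did not include *abcg2d* or *aqp1a.1*, whose mammalian counterparts are also known from these barriers. Of the 23, 1 was listed, the lysolipid carrier *mfsd2aa*, which is not a gene of the naming rule. It was lower in Venus positive cells, with 205 and 25.6 normalized read counts in the double negative replicates and 0 and 11.3 in the Venus positive libraries (p adj = 0.00412), and the libraries of both groups were uneven. None of 16 carriers known from the arachnoid and pial layers of mammals was listed. Those 16 include *slc6a13* but not the like-named *slc6a13l*, which was lower in Venus positive cells.

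Outside the naming rule, 349 RefSeq genes fit a list of other channel, connexin and transporter symbols, and 6 of them were in the table, 2 higher and 4 lower. The higher ones were *chrng* and *calhm2*, a gene of the calcium homeostasis modulator channel family that is also on the meningeal precursor list, at 38.6 and 21.5 normalized read counts in double negative replicates and 274 and 459.8 in Venus positive libraries. The lower ones were *mfsd2aa*, *mfsd6b*, the chloride intracellular channel gene *clic3* and *gja8b*, a connexin gene of the lens. *gja8b* had 74 and 32 reads in double negative replicates and 0 in both Venus positive libraries, and *clic3* had 252 and 295 normalized read counts against 25.1 and 27.8.

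Of the 28 genes that flank the 14 in RefSeq, 1 was listed, a gene without a descriptive symbol beside *abcb6b*, which was itself higher. Of 17 genes with the same stem as a listed transport gene, none was. For 4 of the 14, *atp1a1a.4*, *aqp1a.1*, *slc6a13l* and *cacng1a*, a neighbour belongs to the same family, and the first 3 of these were lower and the last higher in Venus positive cells.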

How the data were processed

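The data were 4 Smart-seq2 libraries, 2 per group, of cells sorted by FACS. The submitters' processing notes and the methods name SOAPnuke filtering, HISAT2 2.0.4 on GRCz11, Bowtie2 2.4.4, RSEM 1.2.28 and DESeq2. The deposited table holds expected counts that the authors estimated with RSEM, normalized counts (a signal: the authors divided the count by a size factor) and group means of TPM that the authors computed. Its p-values and Q values, deposited by the authors, were used only to find what the table was filtered on: all Q values lie under 0.05 and equal an adjustment over 23016 tests. The authors' fold changes and 18 columns of comparisons between single libraries were not used. Venus positive libraries are numbered 3 and 4 in the table but 1 and 2 in the labels. Their count columns therefore entered as 2 unnumbered libraries of that group, and 10 other per-library columns stayed unused.

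Fractional counts were rounded up, which gives back the deposited normalized counts of double negative cells. Size factors of 1.22 and 0.978 (double negative replicates 1 and 2) and 0.796 and 1.15 (Venus positive libraries 3 and 4) were used, the latter from 7 listed genes in the study's Source Data. edgeR 4.0.16 (R 4.3.3) was run as a quasi-likelihood test, ~ group, two-sided, over 754 listed genes that reached 10 counts in 2 or more libraries, with a threshold of 0.05 on the Benjamini-Hochberg adjusted p. The standard error is the absolute log2 fold change divided by the square root of F. The biological coefficient of variation, 0.417, comes from preselected genes and may be too small. The test was also tried on simulated counts, drawn with the mean counts and the coefficient of variation of these libraries. Intervals at 1 to 3 reads are exact binomial intervals of the ratio of summed counts (scipy 1.17.1), and reads carry no molecular identifiers, so limits cover counting error only. The 14 genes, the marker lists and the tests were chosen with earlier results of these data known. Every gene of the naming rule is named, and alternatives were DESeq2 1.42.0, TMM and RLE scaling, nearest rounding, no filter, adjustment over all tests, and each library left out. All 14 matched RefSeq (GRCz12tu) by NCBI gene ID. Its coordinates belong to another build and were not used, and no sequences were used here.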

Additional observations from a re-analysis of the deposited data

How the results depend on the processing

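Of the 14 genes, 8 were called higher and 6 lower. With DESeq2, without a filter on low counts and with counts rounded to the nearest whole number, all 14 calls and directions held. So did those of the whole table. DESeq2 and the setting without a filter each called 485 higher and 271 lower of 756 genes. Nearest rounding called 484 higher and 270 lower of 754. The authors had selected the listed genes with DESeq2, so these settings could hardly lose a call. Adjusted over the 23016 genes the authors tested, 3 were called higher and 5 lower. Scaling over the listed genes alone moves the median log2 fold change of all listed genes by -1.77 (TMM) or -1.87 (RLE), since it sets the middle of a selected list to no change. With either, 2 genes were called higher (*cacng1a* and *slc6a4a*) and 6 lower. With RLE the signs of *atp2b4* (-0.0459) and *atp10a* (-0.0401) turned. Leaving out each library in turn, with the authors' size factors, turned no sign. None could turn, since the groups did not overlap for any listed gene. Without Venus positive library 3 the log2 fold change went from 1.88 to 1.22 for *atp10a* and from 3.62 to 1.45 for *slc2a11b*. It went from 2.65 to 2.46 for *abcb6b* without double negative replicate 1. For *aqp1a.1* it went from -1.83 to -1.54 without double negative replicate 2. With 1 library left in a group, it is assumed to vary like the other group. No paired analysis was possible because the count columns of the Venus positive libraries do not carry the replicate numbers of the labels, so the replicate block was not run. For genes with 0 or 1 read in a group the fold is a bound or has a wide interval.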
